A study of Mus musculus with 2 samples.

Results

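Lyve1 Cd209f resident macrophages were the C1q phagocytes of injured muscle that carried several transcripts of a long-lived tissue macrophage program. They were selected by a rule on detected genes. A barcode had to hold over 200 genes, mitochondrial transcripts had to make up under 10% of its unique molecular identifiers (UMIs, counts of single captured RNA molecules), at least 2 of the 4 phagocyte genes *C1qa*, *C1qb*, *C1qc* and *Csf1r* had to have a UMI, and at least 3 of the 6 markers *Lyve1*, *Cd209f*, *Cd209g*, *Cd163*, *Fcna* and *Pla2g2d* had to have one. This gave 1232 member cells among 48848 barcodes, 882 in the IgG library and 350 in the SPP1-nAb library. The remaining 10628 and 14057 barcodes that met the phagocyte criterion but had fewer than 3 markers were the comparison and are called other C1q phagocytes.

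The study asked how neutralizing SPP1 (osteopontin, a secreted matrix protein and cytokine encoded by *Spp1*) alters the cells of muscle after its nerve is injured. Both groups were male mice aged 10–16 weeks whose peroneal nerve was crushed on both sides, and muscle was taken at 7 days post-injury (dpi). One group received SPP1 neutralizing antibody (SPP1-nAb) and the other goat anti-mouse IgG, each as 2 µg in 10 µL injected into the tibialis anterior muscle every 2 days. Muscles of several mice were pooled, and each group gave 1 droplet-based single-cell RNA-Seq library, so that no difference between groups could be tested and treatment, animals and library cannot be told apart. The labels give the strain as C57BL/6J and the tissue as hind limb muscles including the gastrocnemius. For the antibody experiments the study's methods name S100GFP reporter mice and the tibialis anterior. Its methods for isolating single cells name both the tibialis anterior and the gastrocnemius. The sample titles speak of GFP-positive cells, while the protocols describe sorting of live cells with and without GFP. *Gfp* transcripts stood at 101 CPM (UMIs of a gene per 1000000 UMIs of the cells summed) in IgG members and 109 CPM in SPP1-nAb members, against 229 and 282 CPM in other C1q phagocytes.

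Macrophages of adult tissues include cells that persist in place and cells that arrive as blood monocytes after injury. Those marked by LYVE1, a hyaluronan receptor, typically lie along vessels and nerves, take up debris and carry scavenger and lectin receptors, whereas recruited cells carry the chemokine receptor CCR2 and turn on inflammatory or lipid-handling genes at sites of damage. CD163 is the receptor for hemoglobin bound to haptoglobin, CD209f and CD209g are C-type lectins related to human DC-SIGN, ficolin A (*Fcna*) is a lectin that starts the complement cascade, and *Pla2g2d* encodes a secreted phospholipase A2.

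The IgG library held 97607674 UMIs on 23779 barcodes and the SPP1-nAb library 127719916 UMIs on 25069. The filters on genes and mitochondrial share kept 23385 and 24758 barcodes. IgG members had a median of 4077 UMIs, 1827 genes and 3.06% mitochondrial UMIs, and SPP1-nAb members 4803 UMIs, 2028 genes and 2.74%. Other C1q phagocytes were deeper in both libraries, with medians of 4209 and 5385 UMIs. Wherever a pair of values is given, IgG comes first and SPP1-nAb second. Members together held 3999020 and 1958698 UMIs. Free RNA was estimated at 13.6% and 19.7% in members and at 18.3% and 22.0% in other C1q phagocytes. For most genes, shares of cells with a UMI are given without a background for it. The same barcode string occurred in both libraries 163 times, including 6 IgG and 2 SPP1-nAb members. All intervals given are 95% intervals for counting error only and do not cover the spread between animals.

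The 6 markers lie on 5 chromosomes of GRCm39. *Cd209f* (ENSMUSG00000051906, chr8:4151166-4155847, minus strand) and *Cd209g* (ENSMUSG00000079168, chr8:4184098-4187714, plus strand) are neighbors in the cluster of *Cd209* genes. The others are *Lyve1* (ENSMUSG00000030787, chr7:110448585-110462460), *Cd163* (ENSMUSG00000008845, chr6:124281606-124307560), *Fcna* (ENSMUSG00000026938, chr2:25514671-25519013) and *Pla2g2d* (ENSMUSG00000041202, chr4:138503046-138509357). RefSeq promoter windows (GRCm38.p6) were available for 5 of the 6 markers, all but *Lyve1*. The 250 bases upstream of the start of *Cd209f* (chr8:4105765-4106014, minus strand) and *Cd209g* (chr8:4134486-4134735, plus strand) are shown, 5′ to 3′ along each gene, because the pair was detected in the same cells and the capitals mark an identical stretch of 154 bases that both windows hold.

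Cd209f: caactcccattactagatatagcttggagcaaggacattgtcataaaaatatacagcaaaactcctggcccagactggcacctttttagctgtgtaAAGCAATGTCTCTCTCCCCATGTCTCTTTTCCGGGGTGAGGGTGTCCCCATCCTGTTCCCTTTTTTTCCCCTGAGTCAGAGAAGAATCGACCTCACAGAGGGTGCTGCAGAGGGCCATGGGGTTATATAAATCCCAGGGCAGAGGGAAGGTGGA

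Cd209g: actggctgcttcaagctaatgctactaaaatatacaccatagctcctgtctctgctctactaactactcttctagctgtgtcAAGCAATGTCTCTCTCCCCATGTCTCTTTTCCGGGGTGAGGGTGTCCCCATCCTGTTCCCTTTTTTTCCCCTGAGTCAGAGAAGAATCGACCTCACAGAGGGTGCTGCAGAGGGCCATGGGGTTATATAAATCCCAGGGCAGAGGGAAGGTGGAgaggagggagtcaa

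The shared stretch runs from 154 to 1 bases before the start of *Cd209f* and from 168 to 15 bases before that of *Cd209g*. No run shared with the windows of other *Cd209* genes or markers was longer than 12 bases. Within it lies TGAGTCA, the letters of an AP-1 site, which on either strand were held by 4.46% of 32851 promoter windows of the same length. This motif was chosen after the sequences had been seen. The letters GGAAGT, a PU.1 core, were found on either strand in 1 of the 5 marker windows (*Fcna*) and in 19.7% of all windows. The MAF half-site TGCTGA was likewise found in 1 of the 5 (*Fcna*) and in 16.1% of all windows. Transcripts of the pair also share sequence, so that the level of each gene is uncertain. They have 603 identical stretches of 60 bases, which make up 16.2% of the distinct stretches of *Cd209f* and 15.2% of those of *Cd209g*.

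Members were fewer in the SPP1-nAb library. They made up 3.77% of filtered barcodes in IgG (882 of 23385, Clopper-Pearson interval 3.53% to 4.02%) and 1.41% in SPP1-nAb (350 of 24758, 1.27% to 1.57%), a difference of -2.36 percentage points (-2.65 to -2.07). Among C1q phagocytes the shares were 7.66% of 11510 cells and 2.43% of 14407. Because the rule counts detected genes and the SPP1-nAb library was deeper, each cell was also thinned to 2000 UMIs before the rule was applied, which left out 4275 IgG and 3715 SPP1-nAb cells. At that depth 2.66% of 19110 IgG cells (509 members) and 0.760% of 21043 SPP1-nAb cells (160 members) met the rule. The same direction was therefore present at equal depth, with a ratio of SPP1-nAb to IgG of 0.285 (0.237 to 0.342) against 0.375 (0.330 to 0.425) at full depth. The rule itself reads the level of its markers, so a lower share of members and lower marker levels per cell cannot be told apart here.

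The number of markers per C1q phagocyte was graded, with no gap at the threshold of 3. In IgG, 7537 cells had none of the markers, 2141 had 1, 950 had 2, 489 had 3, 229 had 4, 142 had 5 and 22 had all 6. In SPP1-nAb the corresponding numbers were 11204, 2263, 590, 229, 74, 41 and 6. Genes outside the rule followed the same gradient as a description. *Folr2*, a folate receptor of resident macrophages, stood at 104 CPM in IgG cells without a marker, 548 CPM in those with 2, just outside the rule, and 695 CPM in those with 3, just inside it. In SPP1-nAb these levels were 72.9, 501 and 675 CPM. *Ccr2* ran the other way, with 719, 412 and 198 CPM in IgG and 542, 292 and 178 CPM in SPP1-nAb. *Spp1* was at 921, 96.9 and 71.2 CPM in IgG and 1247, 163 and 78.4 CPM in SPP1-nAb. By difference in CPM, cells with 2 markers thus lay closer to members than to cells with none on each of these 3 genes. By ratio, *Ccr2* in IgG cells with 2 markers lay closer to cells with none.

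**Figure D1:**
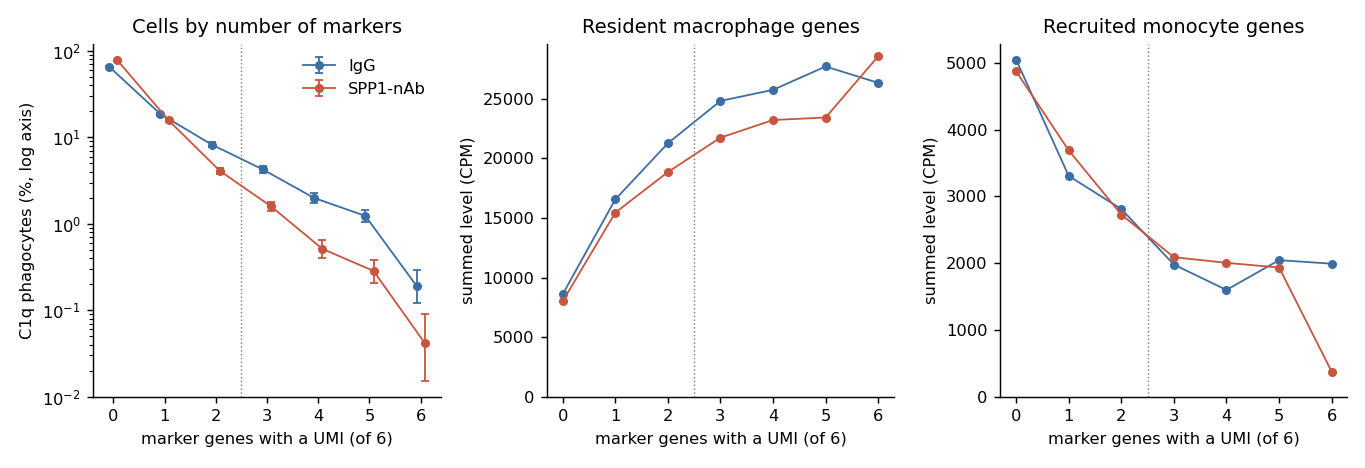
Left, share of C1q phagocytes (%, log axis) by number of the 6 markers with a UMI in the IgG and SPP1-nAb libraries, with Clopper-Pearson intervals. Middle and right, summed level (CPM) of the resident macrophage and recruited monocyte gene lists in the same cells. The dotted line is the threshold of the rule, and the resident list stands at 8595 CPM with no marker and 24820 CPM with 3 markers in IgG.

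The combination of markers varied among members. The most common pattern in IgG was *Lyve1* with *Cd163* and *Fcna*, in 229 cells (26.0%), and the next was these 3 with both lectins, in 95 cells (10.8%). *Cd209g* was nested within *Cd209f*. Of 349 IgG phagocytes with a *Cd209g* UMI, 83.4% also had *Cd209f*, while only 5.24% of all C1q phagocytes did. Of the 603 with *Cd209f*, 48.3% had *Cd209g* and 87.2% had *Cd163*. In SPP1-nAb, 232 phagocytes had *Cd209f*, of which 42.7% had *Cd209g* and 78.9% had *Cd163*.

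The levels of the markers describe the selection and are not results. *Cd163* stood at 1261 CPM in IgG members and 1040 CPM in SPP1-nAb members, *Lyve1* at 691 and 456 CPM, *Cd209f* at 487 and 362 CPM, *Fcna* at 288 and 313 CPM, *Cd209g* at 161 and 120 CPM and *Pla2g2d* at 97.5 and 43.9 CPM. In other C1q phagocytes *Lyve1* was at 64.0 and 16.2 CPM and *Cd163* at 154 and 92.6 CPM. All markers but *Fcna* were thus lower in SPP1-nAb members. A *Lyve1* UMI was present in 82.3% of IgG and 77.7% of SPP1-nAb members, against 0.61% and 0.73% of mesenchymal cells.

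The label was checked against markers of other cells that could carry the same genes. LYVE1 also marks lymphatic endothelium, but that list was near 0 in members. *Prox1* had 8 UMIs in all IgG members and 19 in SPP1-nAb members, *Ccl21a* had 1 in each, *Flt4* 0 and 2, and *Mmrn1* 0 in both. The whole lymphatic list of 5 genes summed to 27.3 and 36.8 CPM, mostly *Pdpn*, and no member had 3 of its markers. T and NK cell genes summed to 1.25 and 1.53 CPM and B cell genes to 5.25 and 6.13 CPM. Transcripts of other tissue cells were more abundant. The mesenchymal list summed to 609 (IgG) and 339 CPM (SPP1-nAb) in members (881 and 537 CPM in other C1q phagocytes), the muscle fiber list to 179 and 78.1 CPM, the neutrophil list to 68.0 and 278 CPM and the erythroid list to 739 and 16.9 CPM. At least 3 markers of another cell type were found in 47 IgG and 19 SPP1-nAb members. The erythroid list was higher in members than in other C1q phagocytes in IgG (190 CPM there) and lower in SPP1-nAb (121 CPM there). At least 3 erythroid markers were found in only 1 of 882 IgG members. The dendritic list was higher in members in both libraries, at 119 and 75.1 CPM against 35.4 and 30.6 CPM, mostly through *Cd209a* (101 and 54.6 CPM against 22.8 and 16.7 CPM). The lists of lymphatic endothelium, T and NK cells and B cells were thus near 0 in cells labelled resident macrophages, and *Cd209a* was not.

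Against other C1q phagocytes, members had more of several single transcripts, among them *Tslp*, *C4b*, *Ednrb*, *Slc40a1* and *Ltc4s*. Most of the compared genes of the recruited monocyte list (10 of 12) and of the lipid-laden phagocyte list (8 of 12) were lower in members. A gene was counted when its CPM differed 2-fold in the same direction in both libraries. Of 9040 genes with enough counts, 237 were higher (2.62%) and 298 lower (3.3%) by this measure. At 2000 UMIs per cell, where fewer genes had enough counts, the numbers were 67 and 197, of which 64 and 136 were among these genes, and with high doublet scores removed 459 genes were lower. The median log2 ratio of all tested genes was 0.03 in IgG and 0.04 in SPP1-nAb. These cells were chosen by 10 of their own genes, so the contrast is a description without a test, and genes that follow the rule genes had to differ.

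A pair of complement genes was higher in members. *C4b* (chr17:34947354-34962912), the gene for complement C4, stood at 302 (IgG) and 336 CPM (SPP1-nAb) in members against 47.9 and 36.7 CPM in other C1q phagocytes, log2 ratios of 2.66 and 3.20. *C6*, a component of the terminal complex, was at 42.8 and 48.5 CPM against 2.39 and 1.60 CPM but had too few counts expected from the other cells to enter the count of genes. *Itgax*, a subunit of a complement receptor, was past 2-fold lower in both libraries.

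Iron handling was uneven. *Slc40a1* (chr1:45947211-45965683) encodes ferroportin, the iron exporter, and stood at 72.0 and 57.7 CPM in members against 12.1 and 9.81 CPM (log2 2.57 and 2.56). The ferritin heavy chain *Fth1*, which stores iron, was lower at 5160 and 6176 CPM against 8953 and 10967 CPM. Of 12 iron and heme genes 11 were compared, and 3 were past 2-fold higher (*Slc40a1*, *Tfrc*, *Cp*) and none lower. The sum over the list was lower (log2 -0.47 and -0.53) while its median ratio was higher (0.58 and 0.21), since the ferritins dominate the sum. *Hpx* had no UMI in members of either library.

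Among genes with enough counts to be compared, others with the largest ratios encode receptors, enzymes and a cytokine. Genes with too few counts expected from the other cells, such as *C6*, were outside this ranking. *Ednrb* (chr14:104052053-104081900), the endothelin receptor B, was at 573 and 566 CPM against 97.3 and 91.6 CPM (log2 2.56 and 2.63). *Ltc4s*, leukotriene C4 synthase, was at 318 and 340 CPM against 63.3 and 42.0 CPM (2.33 and 3.02). *Colec12*, a scavenger receptor of the collectin family, was at 125 and 85.3 CPM against 25.1 and 14.5 CPM (2.32 and 2.56). Of these genes *Ednrb* was nearly equal in the members of both libraries. *Tslp*, a cytokine best known from epithelia, was at 187 and 163 CPM against 28.5 and 12.9 CPM (2.72 and 3.66). *P3h2*, a prolyl hydroxylase that modifies collagens, was at 96.5 and 59.7 CPM against 14.7 and 5.31 CPM (2.71 and 3.49). *Cmah* makes the sialic acid Neu5Gc and was at 155 and 77.1 CPM against 28.0 and 8.80 CPM (2.47 and 3.13). The remaining named genes, *Plekhg5*, *Fxyd2* and *Chp2*, had ratios between 2.35 and 3.34.

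Among scavenger and uptake receptors, 6 of 15 compared genes were past 2-fold higher and 1, *Axl*, was lower. *Gas6* and *Pros1*, which bridge dying cells to the TAM receptors, stood at 503 and 583 CPM and at 217 and 226 CPM, against 151 and 112 CPM and 67.9 and 51.4 CPM. *Axl*, one of these receptors, was at 16.3 and 24.0 CPM against 65.1 and 71.6 CPM, while *Mertk*, another, was at 192 and 167 CPM against 111 and 83.5 CPM. *Mertk* was detected at 2000 UMIs in 31.4% and 28.3% of members and in 18.5% and 14.7% of the others. Members thus held more transcript of both bridging ligands, less of the receptor *Axl* and more of the receptor *Mertk*, although *Mertk* was under 2-fold in IgG.

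Genes of resident macrophages outside the rule were higher. In the list of 18, 14 were compared, 9 were past 2-fold higher and none lower, and the median log2 ratio was 1.36 in IgG and 1.41 in SPP1-nAb. *Folr2* (chr7:101489195-101506401) stood at 750 and 707 CPM against 181 and 115 CPM. At 2000 UMIs per cell it had a UMI in 72.2% of IgG and 72.6% of SPP1-nAb members, and in 24.9% and 17.1% of other C1q phagocytes. *F13a1*, the coagulation factor XIII A chain, was at 2761 and 2148 CPM against 829 and 529 CPM. *Selenop*, a selenium carrier, was the most abundant of the list at 6012 and 5916 CPM against 2335 and 2052 CPM. *Timd4*, a phosphatidylserine receptor, was at 53.5 and 30.1 CPM against 4.14 and 0.90 CPM, and the lectins *Cd209d* and *Cd209b* at 212 and 114 CPM and at 57.5 and 31.1 CPM. *Ccl24* was the exception, at 480 CPM against 260 CPM in IgG and 265 CPM against 699 CPM in SPP1-nAb. Its direction therefore differed between the libraries.

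Genes of recruited monocytes were lower. Of 12 compared, 10 were past 2-fold lower and none higher, with a median log2 ratio of -2.38 in IgG and -1.66 in SPP1-nAb. *Ccr2*, the receptor that draws monocytes out of blood, was at 184 and 167 CPM against 677 and 525 CPM. *Ly6c2* was at 25.3 and 18.9 CPM against 288 and 138 CPM, and *Chil3* at 6.50 and 28.6 CPM against 77.0 and 289 CPM. Members thus held less of these transcripts in both libraries. The list summed to 1895 and 2019 CPM in members against 4530 and 4593 CPM. Among the other C1q phagocytes, those with at least 2 of *Gpr34*, *Fcrls* and *Bank1* also had a low sum, at 2383 and 2172 CPM. A low level of the list was therefore not particular to members. Of genes outside the list, *Il7r*, the interleukin 7 receptor, was at 8.25 and 12.8 CPM against 113 and 121 CPM. *Ear2*, a ribonuclease, had 12 UMIs in IgG and 17 in SPP1-nAb members, or 3.00 and 8.68 CPM against 53.2 and 124 CPM. *F7*, coagulation factor VII, was at 2.00 and 5.62 CPM against 35.0 and 71.1 CPM. *Ltb4r1* had 5 and 2 UMIs in members, *Ccl17* 1 and 3, *Rhov* 5 and 3 and *Cxcl9* 3 and 8, counts too low for a precise ratio. *Tgm2*, a transglutaminase, was at 6.50 and 11.2 CPM against 51.0 and 80.6 CPM.

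**Figure D2:**
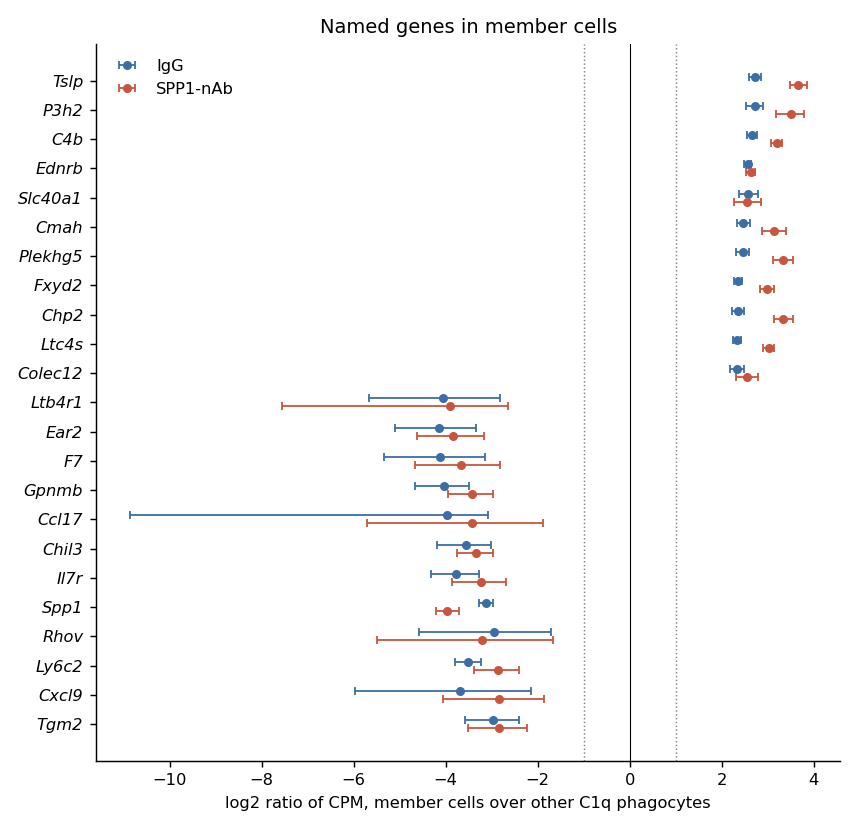
Log2 ratio of CPM in members over other C1q phagocytes within the IgG and SPP1-nAb libraries, with exact binomial intervals and dotted lines at 2-fold. Shown are the named genes furthest from 0 in each direction among those with enough counts to be compared. Counts under 3 are drawn at 3. *Tslp* stands at 2.72 and 3.66 and *Gpnmb* at -4.04 and -3.44.

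*Spp1* (ENSMUSG00000029304, chr5:104582165-104589235), whose product the antibody neutralizes, was low in members. It stood at 83.8 (IgG) and 68.9 CPM (SPP1-nAb) in members against 729 and 1076 CPM in other C1q phagocytes, log2 ratios of -3.12 and -3.96. In members 10 cells held 78.5% of its UMIs in IgG and 84.4% in SPP1-nAb. At 2000 UMIs per cell, 3.42% of IgG (2.30% to 4.87%) and 3.79% of SPP1-nAb members (2.03% to 6.39%) had a UMI, against 20.8% and 30.1% of other C1q phagocytes. Mesenchymal cells, a background for free RNA, had 5.42% and 6.69%. The share in members was at or below this background. Receptors of SPP1 were present: *Cd44* was at 425 and 545 CPM against 795 and 978 CPM and *Itgav* at 73.3 and 119 CPM against 163 and 212 CPM. *Itgav* was past 2-fold lower in IgG (log2 -1.15) but not in SPP1-nAb (-0.83), and none of 7 compared receptor genes was past 2-fold in the same direction in both libraries.

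Genes of lipid-laden phagocytes, the state to which *Spp1* belongs, were lower for 8 of 12 compared and higher for none. *Gpnmb*, a glycoprotein of that state, had 26 and 35 UMIs in members, 6.50 and 17.9 CPM against 107 and 194 CPM. The median log2 ratio of the list was -1.73 in IgG and -1.76 in SPP1-nAb. Its sum differed less (-0.29 and -0.34), because *Apoe* supplied most of it.

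MHC class II, inflammatory and interferon genes were lower in sum. The MHC class II list, which serves antigen presentation to T cells, summed to 8961 and 6616 CPM in members against 15755 and 14794 CPM, although only *H2-DMb2* of 8 compared genes was past 2-fold in both libraries. The inflammatory list summed to 6771 and 9548 CPM against 13224 and 13905 CPM, with *Il1b*, *Il1a*, *Ptgs2* and *Cxcl3* past 2-fold lower and none higher. The type I interferon list summed to 1015 and 1167 CPM against 2149 and 1378 CPM, with none of 11 past 2-fold in both libraries. The last gap was wide in IgG (log2 -1.08) and narrow in SPP1-nAb (-0.24), where it turned to 0.027 with at least 4 markers required.

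Chemokines and trophic factors split by gene. *Ccl8*, a CC chemokine, stood at 3953 and 4828 CPM against 1092 and 1125 CPM, and *Cxcl12* was also past 2-fold higher. *Ccl5* and *Cxcl9* were lower, making 2 of 13 in each direction. *Igf1*, an insulin-like growth factor that promotes muscle repair, was at 651 and 591 CPM against 253 and 247 CPM, and *Pdgfc* at 173 and 225 CPM against 64.0 and 66.6 CPM. Of 16 trophic genes 4 were higher (*Igf1*, *Gas6*, *Pdgfc*, *Bmp2*) and 2 lower (*Vegfa*, *Gdf3*). For both lists in IgG the sum was higher (log2 0.40 and 0.47) and the median ratio lower (-0.37 and -0.12). Of the macrophage transcription factors 4 of 19 were lower (*Nr1h3*, *Pparg*, *Id1*, *Runx3*) and none higher, with *Maf* at 1809 and 1543 CPM against 1001 and 678 CPM. None of 10 cell cycle genes was past 2-fold, and of 10 immediate early and heat shock genes only *Egr1* was higher.

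Of the microglia and nerve macrophage list, 2 of 6 compared genes were higher, *Gpr34* (308 and 201 CPM against 115 and 50.4 CPM) and *P2ry12* (117 and 94.5 CPM in members). *Siglech* was at 60.3 and 26.0 CPM against 5.85 and 1.78 CPM. *Sall1*, a microglial factor, had no UMI in members. Overlap with a neighboring population was therefore counted. At least 2 of *Gpr34*, *Fcrls* and *Bank1* were detected in 56.0% of IgG and 48.6% of SPP1-nAb members, against 20.8% and 13.04% of other C1q phagocytes. At 2000 UMIs per cell, with the rule for members applied at that depth, the shares were 32.8% and 21.3% of members and 11.4% and 5.69% of the others. *Tnip3* and *Clec4b1* were detected together in 2.04% and 4.29% of members and 11.6% and 12.7% of the others.

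**Figure D3:**
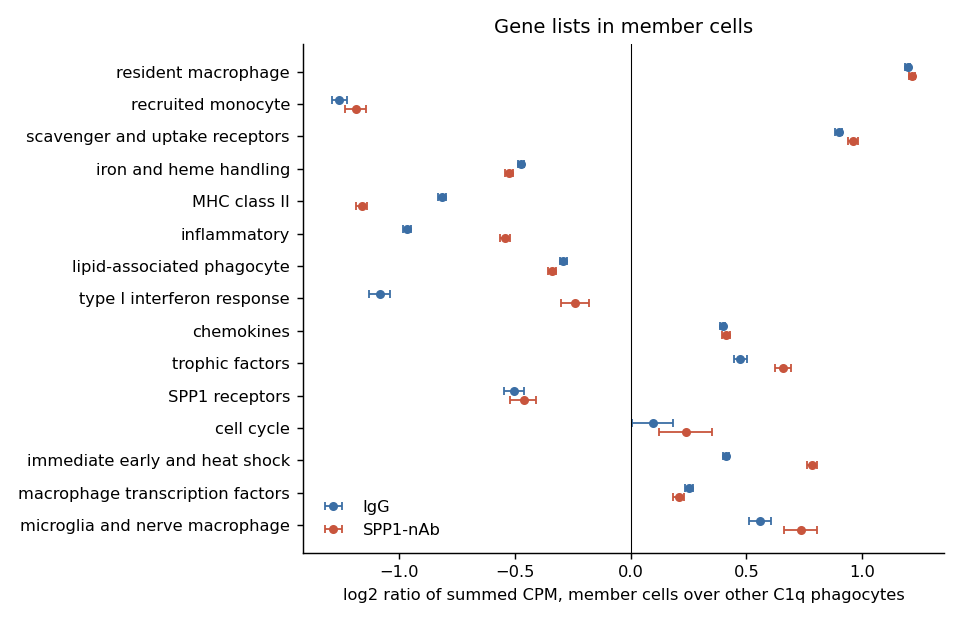
Log2 ratio of summed CPM in members over other C1q phagocytes for 15 gene lists, without the genes of the rule, within each library and with exact binomial intervals. The resident list lies at 1.20 and 1.22 and the recruited monocyte list at -1.26 and -1.19.

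Members lay near each other in expression space even with the 10 genes of the rule left out. Of the 15 nearest phagocytes of an IgG member, 45.6% on average were members, against 4.11% for other C1q phagocytes and a share of 7.66% overall. In SPP1-nAb the values were 32.9%, 1.42% and 2.43%. Cells with more markers had more member neighbors: in IgG, 38.9% for cells with 3 and 58.5% for cells with 5. Cells with 2 markers had 23.1%. Genes that follow the markers shape these neighborhoods, so they describe the selection and are not a separate line of evidence.

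Among themselves, members fell into 8 subgroups when clustered without the genes of the rule. Subgroup 1 (468 cells) was led by *Rcan1*, *Ccl4*, *Ccl3*, *Il10* and *Cxcl2*, products of acute activation. Subgroup 2 (315 cells) was led by *Tpm1*, *P3h2*, *P2rx7*, *Txnip* and *Tslp*, and held the erythroid list at 3240 and 17.6 CPM and the muscle fiber list at 512 and 164 CPM. Of the 2956 erythroid UMIs of IgG members, 2892 were in this subgroup. Few cells carried most UMIs of the hemoglobin gene *Hbb-bs*, as given below, so this level does not describe the subgroup as a whole. Subgroup 3 (244 cells) was led, over both libraries together, by *Retnla*, a secreted protein of alternatively activated macrophages, with *Cd209b*, *Cd209a*, *Cd209d* and *Cd74*. *Retnla* stood at 8162 CPM in its IgG cells but at 905 CPM in its SPP1-nAb cells. In SPP1-nAb it was higher in subgroup 4 (2037 CPM), so that its lead in subgroup 3 rests on IgG. Subgroups 1, 2 and 3 held most members, and the resident list was high in each of them, between 22983 and 30124 CPM in either library.

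The smaller subgroups carried other programs. Subgroup 4 (83 cells) was led by *Ly6c2*, *Il7r* and *Spp1* among other genes, had a median of 8219 UMIs and held the neutrophil list at 223 and 1265 CPM. Subgroup 6 (44 cells) was led by *Nkain2*, *Rian*, *Ank3* and *Tenm3* and held mesenchymal genes at 8185 and 5383 CPM. Subgroup 7 (19 cells) was led by the mitotic genes *Hmmr*, *Birc5* and *Cenpf*. Subgroup 8 (14 cells) had a median of 1689 UMIs and was too shallow to describe. Transcripts of other cell types were therefore found in subgroups 2, 4 and 6, of which 4 and 6 were also deep, and the part of doublets in them was not tested. In subgroup 3 the dendritic list stood at 257 (IgG) and 95.9 CPM (SPP1-nAb), against 119 and 75.1 CPM in all members. Removing the 10% of barcodes with the highest doublet score took 137 IgG and 44 SPP1-nAb members (15.5% and 12.6%) and left 7 subgroups.

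Subgroup 5 (45 cells) was led by *Ifit2*, *Ifit3*, *Slfn1*, *Cmpk2* and *Iigp1*, which are induced by interferons, and its interferon list stood at 4354 CPM in IgG cells and 4359 CPM in SPP1-nAb cells. Of 10 leading genes 9 had a RefSeq window, and 5 of these (*Ifi206*, *Ifi213*, *Ifit1*, *Ifit3*, *Igtp*) held the core of the interferon-stimulated response element (GAAA, any 2 bases, GAAA) on either strand, against 2.98% of all windows. The windows of *Ifit1* (GRCm38.p6, chr19:34640639-34640888, plus strand) and *Ifit3* (chr19:34583279-34583528, plus strand) are shown because each holds 2 matches, in capitals and on the opposite strand.

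Ifit1: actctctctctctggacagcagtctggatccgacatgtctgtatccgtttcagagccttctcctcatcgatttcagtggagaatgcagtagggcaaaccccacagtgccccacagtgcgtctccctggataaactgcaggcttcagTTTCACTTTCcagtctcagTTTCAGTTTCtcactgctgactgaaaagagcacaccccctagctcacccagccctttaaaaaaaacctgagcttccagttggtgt

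Ifit3: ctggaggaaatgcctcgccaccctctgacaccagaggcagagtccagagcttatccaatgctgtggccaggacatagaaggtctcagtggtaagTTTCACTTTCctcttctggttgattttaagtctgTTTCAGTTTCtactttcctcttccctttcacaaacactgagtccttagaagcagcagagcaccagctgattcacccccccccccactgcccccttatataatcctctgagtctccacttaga

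A match of letters describes these windows and does not show that a factor bound there in the cells.

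**Figure D4:**
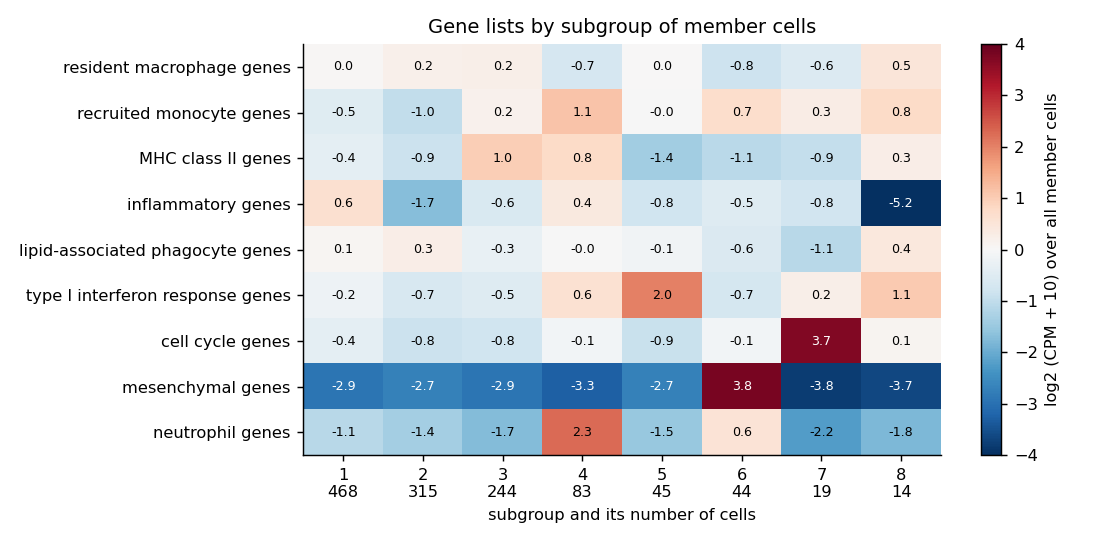
Log2 ratio of summed CPM (plus 10) in each of the 8 subgroups over all members of both libraries, for 9 gene lists, with the number of cells under each subgroup. The mesenchymal list is high in subgroup 6, the neutrophil list in subgroup 4, the interferon list in subgroup 5 and the cell cycle list in subgroup 7.

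Between the libraries, SPP1-nAb members had more inflammatory transcript and less MHC class II transcript than IgG members. Of 6404 genes with enough counts in members, 237 were at least 1.5-fold higher (3.7%) and 219 at least 1.5-fold lower (3.42%) in SPP1-nAb, and the median log2 ratio was 0.01. At 2000 UMIs per cell, where there were fewer members and fewer UMIs to reach the minimum of 100, the numbers were 126 and 100, of which 35 and 23 were among these genes. How many of the remaining genes could not be compared at that depth was not counted. With at least 4 markers required, 85 of the 237 and 52 of the 219 were again past 1.5-fold. In 45 of the 237 and 37 of the 219, the 10 cells with the most UMIs held over 50% of them. In other C1q phagocytes, 56 of the 6404 genes were past 1.5-fold higher and 297 lower. Of these, 36 were among the 237 and 82 among the 219. Each side is 1 library, so these are differences between libraries, and which cells met the rule also differed.

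The inflammatory list was 6771 (IgG) and 9548 CPM (SPP1-nAb) in members, a log2 ratio of 0.50 (0.47 to 0.52) against 0.07 in other C1q phagocytes. Of 12 genes compared, 5 were past 1.5-fold higher (*Il1b*, *Ptgs2*, *Cxcl2*, *Cxcl3*, *Nlrp3*) and none lower, and the median ratio was 0.52. *Il1b* (chr2:129206490-129213059), the cytokine interleukin 1β, had 190 (IgG) and 397 CPM (SPP1-nAb) in members, a log2 ratio of 1.07 (0.92 to 1.21). In both libraries 10 cells held about as much of it, 42.4% and 41.5% of the UMIs. At 2000 UMIs it was detected in 11.2% of IgG (9.15% to 13.5%) and 21.6% of SPP1-nAb members (17.3% to 26.3%), still below the 42.7% and 53.9% of other C1q phagocytes. The estimated free RNA was also higher in SPP1-nAb members, and its part in these shares was not tested. *Cxcl2* (chr5:91051730-91053797), a neutrophil chemoattractant, had 3771 (IgG) and 5861 CPM (SPP1-nAb), a ratio of 0.64 (0.60 to 0.67), and its share of cells at 2000 UMIs differed by 5.41 percentage points with an interval that included 0 (-0.61 to 11.2). *Nlrp3*, the inflammasome sensor, had 91.8 CPM in IgG members and 143 CPM in SPP1-nAb members. *Ptgs2* and *Cxcl3* had over 75% of their UMIs in 10 cells. Within subgroups 1 and 3 the list was likewise higher in SPP1-nAb (11128 and 13632 CPM, 4494 and 6570 CPM), and in subgroup 2 it was 2380 and 2347 CPM. In the sums over all members the mix of subgroups was not held equal between the libraries.

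The MHC class II list stood at 8961 (IgG) and 6616 CPM (SPP1-nAb) in members, a log2 ratio of -0.44 (-0.47 to -0.41) against -0.09 in other C1q phagocytes. Only *Ciita*, the master activator of these genes, was past 1.5-fold lower among 7 compared, and the median ratio was -0.39. *Cd74*, the invariant chain, had 4545 (IgG) and 3202 CPM (SPP1-nAb), and at 2000 UMIs it was detected in 72.8% and 66.2% of members. The list made up 0.360% of the UMIs of the median member in IgG and 0.120% in SPP1-nAb. The difference was present within subgroup 1 (6674 and 5542 CPM), subgroup 2 (4815 and 3558 CPM) and subgroup 3 (18892 and 9151 CPM). In subgroup 5 the list went the other way (2628 and 4650 CPM). The dendritic list was also lower in SPP1-nAb members, at 119 (IgG) and 75.1 CPM (SPP1-nAb). Its log2 ratio was -0.66 against -0.21 in other C1q phagocytes, and its part in the MHC class II difference was not tested.

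Genes of lipid-laden phagocytes were higher in SPP1-nAb members, as in other C1q phagocytes (log2 ratios of the sums 0.20 and 0.25). Of 11 compared, 5 were past 1.5-fold higher (*Fabp5*, *Fabp4*, *Lgals3*, *Atp6v0d2*, *Plin2*) and none lower. *Fabp5* (chr3:10077602-10081674), a fatty acid carrier, had 159 (IgG) and 417 CPM (SPP1-nAb) in members, a ratio of 1.40 (1.24 to 1.55), but 10 cells held 53.9% and 74.9% of its UMIs. It was among the leading genes of subgroup 4, where it had 1475 CPM against 73.5 CPM in all remaining members, and the mix of subgroups was not held equal between the libraries. At 2000 UMIs it was detected in 8.95% and 17.8% of members. *Lgals3*, the lectin galectin-3, had 399 and 765 CPM (0.94, 0.84 to 1.04) and was spread over more cells, being detected in 37.8% (34.5% to 41.2%) and 55.1% (49.7% to 60.4%). *Plin2*, a coat protein of lipid droplets, had 197 and 330 CPM. *Spp1*, from the same list, went the other way in members, with a log2 ratio of -0.28 (-0.58 to 0.01) whose interval included 0, against 0.56 in other C1q phagocytes, a gap of -0.84 (-1.13 to -0.55). Its UMIs lay mostly in 10 cells, and the ratio in members turned to 0.51 with at least 2 markers required.

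The resident macrophage list was 25591 (IgG) and 22405 CPM (SPP1-nAb) in members (log2 -0.19, against -0.21 in other C1q phagocytes). Of 18 genes, 4 were past 1.5-fold lower (*Timd4*, *Cd209d*, *Cd209b*, *Ccl24*) and none higher. *Cd209d* (chr8:3921824-3928568) had 212 (IgG) and 114 CPM (SPP1-nAb), a ratio of -0.90 (-1.12 to -0.68), and was detected at 2000 UMIs in 27.3% (24.4% to 30.5%) and 14.3% (10.8% to 18.4%) of members. *Timd4* (chr11:46701620-46735177) had 214 UMIs in IgG and 59 in SPP1-nAb members, a ratio of -0.83 (-1.27 to -0.41). Its share of cells at 2000 UMIs was 10.0% and 6.71%, a difference of -3.31 percentage points with an interval that included 0 (-6.58 to 0.42). *Ccl24*, an eosinophil chemoattractant, was detected in 47.2% and 27.4% of members, whereas in other C1q phagocytes it was higher in SPP1-nAb (ratio 1.43). Most of the list, including *Folr2*, *Selenop* and *Mrc1*, lay within 1.5-fold.

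Secreted factors differed gene by gene. *Gdf15*, a stress-induced cytokine, had 141 (IgG) and 376 CPM (SPP1-nAb) in members, a ratio of 1.41 (1.25 to 1.58) against 0.35 in other C1q phagocytes, and was detected at 2000 UMIs in 16.4% (13.9% to 19.0%) and 30.9% (26.1% to 36.1%). It and *Pdgfa* were the 2 of 14 trophic genes past 1.5-fold. *Ccl8* lay within 1.5-fold by CPM but was detected in 65.4% of IgG and 81.0% of SPP1-nAb members at 2000 UMIs. *Cxcl13*, a B cell chemoattractant, had 47.8 and 127 CPM with 73.8% and 93.6% of its UMIs in 10 cells. Of 12 chemokine genes 3 were higher (*Cxcl13*, *Cxcl14*, *Cxcl16*) and 1 lower (*Ccl24*), and the ratio of the sums was -0.02, which turned positive under several settings. The sum and the median ratio (0.12) had opposite signs.

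The type I interferon list had a log2 ratio of 0.20 (0.13 to 0.28) in members and -0.64 in other C1q phagocytes. Of 10 compared genes in members, 2 were past 1.5-fold lower (*Ifit3*, *Usp18*) and none higher, and *Isg15* had 160 and 213 CPM. Immediate early and heat shock genes were lower in both sets (-0.32 and -0.69), with 3 of 10 past 1.5-fold lower in members. Of the transcription factors *Bach1*, a heme-responsive repressor, was higher (323 and 503 CPM) and *Klf2* and *Mef2c* were lower (395 and 257 CPM, 703 and 448 CPM). Iron and heme genes (11 compared) and cell cycle genes (4 compared) had none past 1.5-fold. *C3* and *Cfb*, both of the complement system, were past 1.5-fold higher. Of the other lists, *Plac8* and *F10* were higher among 8 recruited monocyte genes and *Itgav* among 7 SPP1 receptor genes, while *Gpr34* and *Siglech* were lower among 6 microglia genes and *Timd4* among 16 uptake receptors. The recruited monocyte sum (0.09) and median ratio (-0.06) differed in sign.

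**Figure D5:**
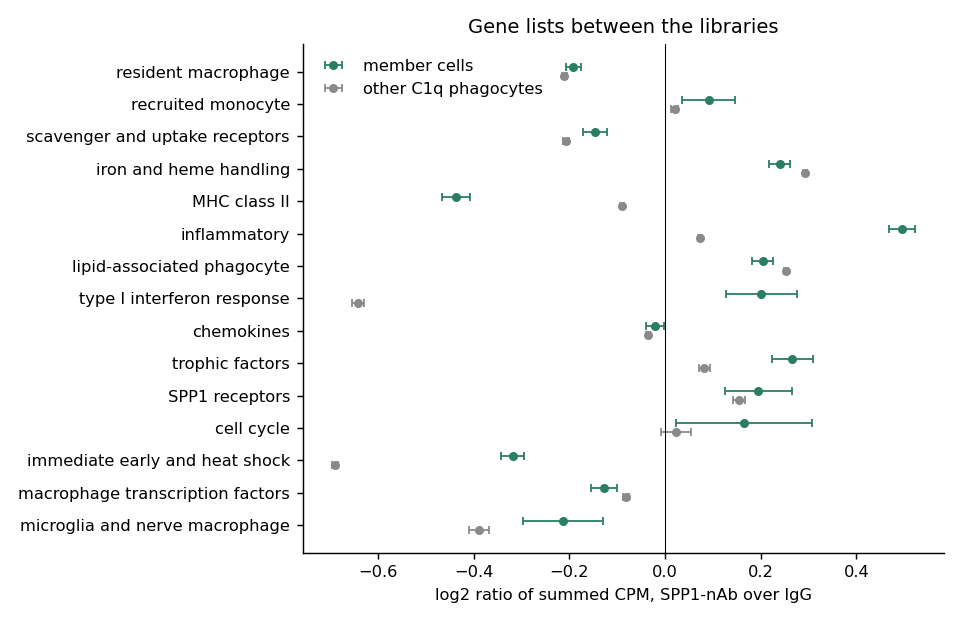
Log2 ratio of summed CPM, SPP1-nAb over IgG, for 15 gene lists in members and in other C1q phagocytes, with exact binomial intervals for counting error. The inflammatory list lies at 0.50 in members and 0.07 in the others, and the MHC class II list at -0.44 and -0.09.

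The genes with the largest ratios between the libraries were mostly carried by few cells. *S100a9*, a neutrophil granule gene, had 53 UMIs in IgG and 246 in SPP1-nAb members (log2 3.24), with 100% and 96.8% of them in 10 cells. *Tenm3* had 302 and 12 UMIs (-3.62), with 95.0% of the IgG UMIs in 10 cells. Mesenchymal and tendon genes (*Aspn*, *Prg4*, *Apod*, *Thbs4*, *Gas1*) also led the lower side, and the direction of *Prg4*, *Apod* and *Thbs4* turned under other settings. *Hbb-bs*, a hemoglobin gene left out of the naming rule, had 1508 and 20 UMIs, with 97.5% of the IgG UMIs in 10 cells. Summed levels of the erythroid, neutrophil and mesenchymal lists in members differed between the libraries by log2 ratios of -5.46, 2.03 and -0.84. The vascular endothelial list differed by 1.68, the tenocyte list by -1.36 and the muscle fiber list by -1.20. The Schwann list differed by -0.91 and the dendritic list by -0.66. The part of these transcripts in the other differences was not tested. A pair of matrix metalloprotease genes was less concentrated. *Mmp19* had 55.3 (IgG) and 171 CPM (SPP1-nAb), a log2 ratio of 1.63, with 33.5% and 33.2% of UMIs in 10 cells. *Mmp9* (chr2:164780439-164797771), a gelatinase, had 63.0 and 14.3 CPM (-2.14), from 252 and 28 UMIs of which 10 cells held 18.7% and 64.3%. It was among the leading genes of subgroup 3, where it had 155 CPM against 25.5 CPM in all remaining members. Within that subgroup it had 198 (IgG) and 38.4 CPM (SPP1-nAb), from 143 and 10 UMIs. The mix of subgroups was not held equal between the libraries.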

How the data were processed

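The authors deposited raw UMI counts per gene and barcode for both libraries, as written by Cell Ranger (8.0.0 in the submitters' processing notes, 9.0.1 in the file header) against GRCm39, before the ambient RNA correction, filters, doublet removal and integration of the study. Its methods also name GRCm38. Counts were summed over member cells and over other C1q phagocytes, scaled to CPM and compared within each library and between libraries. There is 1 library per group, so no test was run. Intervals were Clopper-Pearson for shares, exact Poisson for CPM and exact binomial for ratios. Genes needed at least 100 UMIs and 20 cells with a UMI, and, for members against others, 10 UMIs expected in members at the level of the others. Named genes were the markers, *Spp1*, the 12 per direction (members) or 10 per direction (libraries) with the largest ratios, leaving out mitochondrial, ribosomal, hemoglobin, immunoglobulin and sex-linked genes and unnamed models, and members of the lists, and some results that this rule would name are not reported here. Members and lists were chosen with earlier results of these data known. Doublets were kept in the values reported. Subgroups were Leiden clusters (resolution 0.5, 15 neighbors, 20 components of 2000 variable genes) with genes centered within libraries. Positions for 238 of 240 genes came from GENCODE M39 (GRCm39) and promoters from RefSeq (GRCm38.p6). Python 3.11.15, NumPy 2.4.6, SciPy 1.17.1, pandas 2.3.3, scikit-learn 1.9.0, igraph 0.11.9, leidenalg 0.10.2 and matplotlib 3.10.9 were used, and the calculations were tested on simulated data.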

Additional observations from a re-analysis of the deposited data

Results flagged for a closer look

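The type I interferon list differed between the libraries in opposite directions in members and in other C1q phagocytes. Its log2 ratio of SPP1-nAb over IgG was 0.20 in members and -0.64 in other C1q phagocytes, a gap of 0.84. With 1 library per group, this difference was not tested.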

How the results depend on the processing

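No paired analysis was possible because each group has 1 library. The share of members stayed lower in SPP1-nAb under every alternative run. The difference of -2.36 percentage points became -4.04 with at least 2 markers, -1.19 with at least 4, -1.90 at 2000 UMIs per cell and -5.23 as a share of C1q phagocytes. With single markers left out of the rule it was -1.37 (*Lyve1*), -1.95 (*Cd209f*), -2.23 (*Cd209g*), -1.25 (*Cd163*), -1.80 (*Fcna*) and -2.04 (*Pla2g2d*).

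The counts of genes depended on depth and filters. The count of 237 genes higher in members was 117 with at least 4 markers (105 shared), 67 at 2000 UMIs (64 shared), 365 against phagocytes with no marker and 437 when genes were also admitted by their own UMIs in members, an alternative chosen after seeing the data. The count of 298 lower was 197 at 2000 UMIs (136 shared) and 459 with high doublet scores removed (267 shared). The count of 237 higher in SPP1-nAb was 126 at 2000 UMIs (35 shared with the 237), 573 with at least 30 UMIs and 92 with at least 300. The count of 219 lower was 100 (23 shared), 737 and 51 under the same settings and 362 with at least 2 markers (101 shared). At resolution 1 there were 13 subgroups.

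Between libraries, the inflammatory, MHC class II and resident macrophage lists kept their direction in members under every alternative. The recruited monocyte list turned to -0.018 with free RNA subtracted. The chemokine list turned to 0.038 (at least 2 markers), 0.055 (at least 4), 0.049 (2000 UMIs), 0.013 (doublets removed) and 0.0044 (free RNA subtracted), and the cell cycle list to -0.032 (under 5% mitochondrial UMIs) and -0.39 (at least 4 markers). Members over others, the cell cycle list turned to -0.020 (at least 2 markers), -0.17 (2000 UMIs) and -0.16 (doublets removed) in IgG and -0.25 (at least 4 markers) in SPP1-nAb, and the interferon list to 0.027 (at least 4 markers) in SPP1-nAb. Of genes named between libraries, *Olfr1033* turned to -1.22 (doublets removed) and -1.45 (mixed barcodes removed), *Prg4* to 1.67 and *Apod* to 0.62 (2000 UMIs), *Ank3* to 1.35 (doublets removed) and *Thbs4* to 1.10 (doublets removed) and 0.039 (mixed barcodes removed). The cause of these changes was not tested. For 10 pairs of a gene and a setting no ratio could be given.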
